A study of Homo sapiens with 8 samples.

Results

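The solvent control of a benzo[a]pyrene (BaP) study is described here: HepG2 cells kept with dimethyl sulfoxide (DMSO) alone, measured at 24 h and at 12 h. HepG2 is an established cell line from a human liver tumour that still makes many liver proteins. The members were 4 of the 8 arrays of the series, taken by title: 2 arrays of DMSO for 24 h and 2 arrays of DMSO for 12 h. Every array row with an Ensembl gene ID was used, 19002 of 19064 rows; the other 62 rows are control probe sets. Cells of all groups had grown to 80% confluence in serum-containing medium, and at the start of exposure that medium was exchanged for fresh medium with either a compound or a solvent. The solvent of these groups was 0.5% DMSO, and no array of untreated cells or of an earlier time enters the comparison, so time since the medium change, time with DMSO and cell density run together and cannot be told apart. The other 4 arrays are BaP for 24 h and BaP for 12 h, 2 of each, from the same cell line.

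A solvent control carries its own time course. After fresh serum-containing medium is added, cultured cells commonly pass through an early growth factor response, use up nutrients and become denser, and dividing cells slow down as they fill the dish. A dividing cell passes through G1, in which it grows, S, in which it copies its DNA, and G2 and M, in which it prepares for division and divides. Levels below are log2 values, so a difference of 1 is a factor of 2, and a gene was counted as changed when its limma p-value, adjusted by the Benjamini-Hochberg method over all 19002 genes, was under 0.05.

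The files give genes by Ensembl ID without symbols, and the gene table at hand matched 0 of the 19002 IDs. The text names 2 genes that rose and 2 that fell by their IDs, and gives functions only for transcripts that the control probe sets name and for cell cycle phase sets that can be matched by ID. Liver marker genes could not be looked up, so the labelled cell type was not checked against them. Array medians lay between 6.64 and 6.68. The median gene differed between replicates by 0.0964 at 24 h and by 0.0837 at 12 h in DMSO. The array DMSO 24 h replicate 2 stands apart in its 18S ribosomal RNA probe sets, described further on, and the main counts are given with and without it.

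The gene that rose most was ENSG00000170345. Its level was 8.14 and 8.44 on the arrays of DMSO at 24 h, against 5.21 and 5.20 on those of DMSO at 12 h. The groups lay far apart, with a gap many times the distance between replicates. The log2 change was 3.08 ± 0.27 (limma moderated SE, adjusted p = 0.00232), a factor of 8.47. ENSG00000114698 came second, at 7.70 and 8.55 at 24 h, against 5.89 and 5.89 at 12 h. Both arrays at 24 h lay above both at 12 h, with replicate 2 well above replicate 1 at 24 h and the 12 h arrays nearly equal. Its log2 change was 2.24 ± 0.22 (SE, limma adjusted p = 0.00302), a factor of 4.72. Both genes still passed when any 1 array was left out, with adjusted p-values of 0.0368 and 0.0419 at most, in each case without DMSO 12 h replicate 2.

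The gene that fell most was ENSG00000189057. It had 6.40 and 5.86 in DMSO at 24 h, against 7.36 and 7.13 in DMSO at 12 h. The groups did not overlap, and the lower of the arrays at 24 h was replicate 2. The log2 change was -1.12 ± 0.17 (SE, limma adjusted p = 0.0108), a factor of 2.17. ENSG00000118514 had 4.32 and 4.36 at 24 h, against 5.41 and 5.29 at 12 h. Its level at 24 h was at that of the highest trp control value, 4.35. The trp control is a bacterial transcript read here as not added to the samples. On the BaP arrays of 24 h the gene read lower, at 4.08 and 3.97. Whether background limits the size of its fall was not tested. The log2 change in DMSO was -1.01 ± 0.14 (SE, limma adjusted p = 0.00767). Both calls were lost, with the same direction, when 1 of 3 arrays was left out. Without DMSO 24 h replicate 2 the adjusted p was 0.0537 for ENSG00000189057 and 0.0565 for ENSG00000118514. Leaving out replicate 1 of DMSO at 12 h gave 0.0642 and 0.0507 for these genes, and leaving out its replicate 2 gave 0.0658 and 0.0642.

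**Figure D1:**
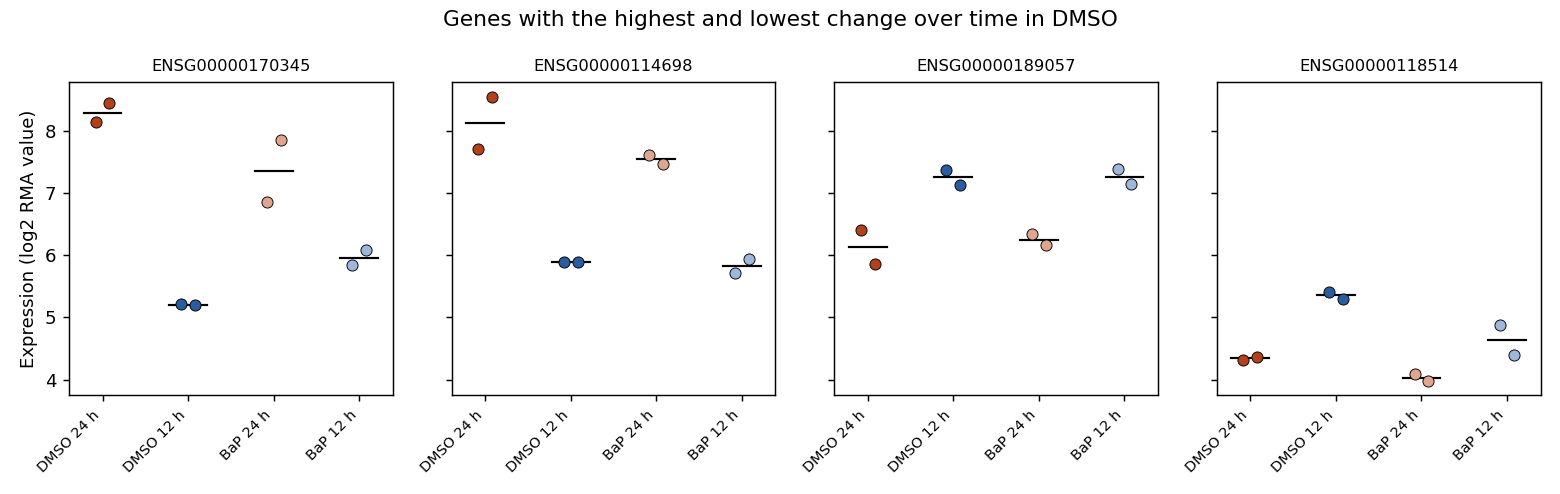
Level of 4 genes on each array (y axis, log2 RMA value; points, arrays; lines, group means; 2 arrays per group). ENSG00000170345 and ENSG00000114698 are higher at 24 h than at 12 h in DMSO, ENSG00000189057 and ENSG00000118514 lower, and the BaP arrays of the same times are drawn to the right.

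In all, 1302 genes differed between 24 h and 12 h in DMSO, which is 6.85% of those tested. Of these, 595 were higher at 24 h (3.13% of genes) and 707 lower (3.72%). In this fit the rises were the larger changes although the falls were more frequent. That majority of falls depended on the settings, and alternatives went both ways. The DMSO arrays alone gave 350 higher and 281 lower, and an adjusted p under 0.01 gave 120 and 68. A replicate block kept the majority, with 640 higher and 748 lower. The median log2 change was 0.49 among genes that rose and -0.38 among genes that fell. A change of at least 2-fold was reached by 34 of the 595 and by 2 of the 707, and a change of at least 1.5-fold by 192 and by 64. The other 403 genes that rose and 643 that fell moved by less than 1.5-fold. Log2 changes of the 15 genes that rose most ran from 1.23 to 3.08, and of the 15 that fell most from -1.12 to -0.73.

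Counted without regard to the threshold, 35 genes were at least 2-fold higher and 2 at least 2-fold lower at 24 h. When DMSO 24 h replicate 2 was left out, 17 genes that passed were at least 2-fold higher and 0 at least 2-fold lower in limma, and regardless of the threshold 21 were higher and 2 lower by that size. The median change over all genes was -0.02. Calls were more frequent among brighter genes: in 3 level classes of 6334 genes each, by mean level, 1.07% of the dimmest, 5.70% of the middle and 13.8% of the brightest class were called. In the brightest class 8.23% of genes fell and 5.56% rose, and in the middle class 2.45% fell and 3.25% rose. The fit lacking DMSO 24 h replicate 2 called 0.0474%, 0.616% and 1.47% of the classes from dim to bright, and in the brightest 0.426% fell and 1.04% rose, the opposite balance. The median level was 8.31 for genes that rose, 8.83 for genes that fell and 6.67 for all genes. Of the 3153 genes with a mean at or below the trp control level, 27 were called.

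**Figure D2:**
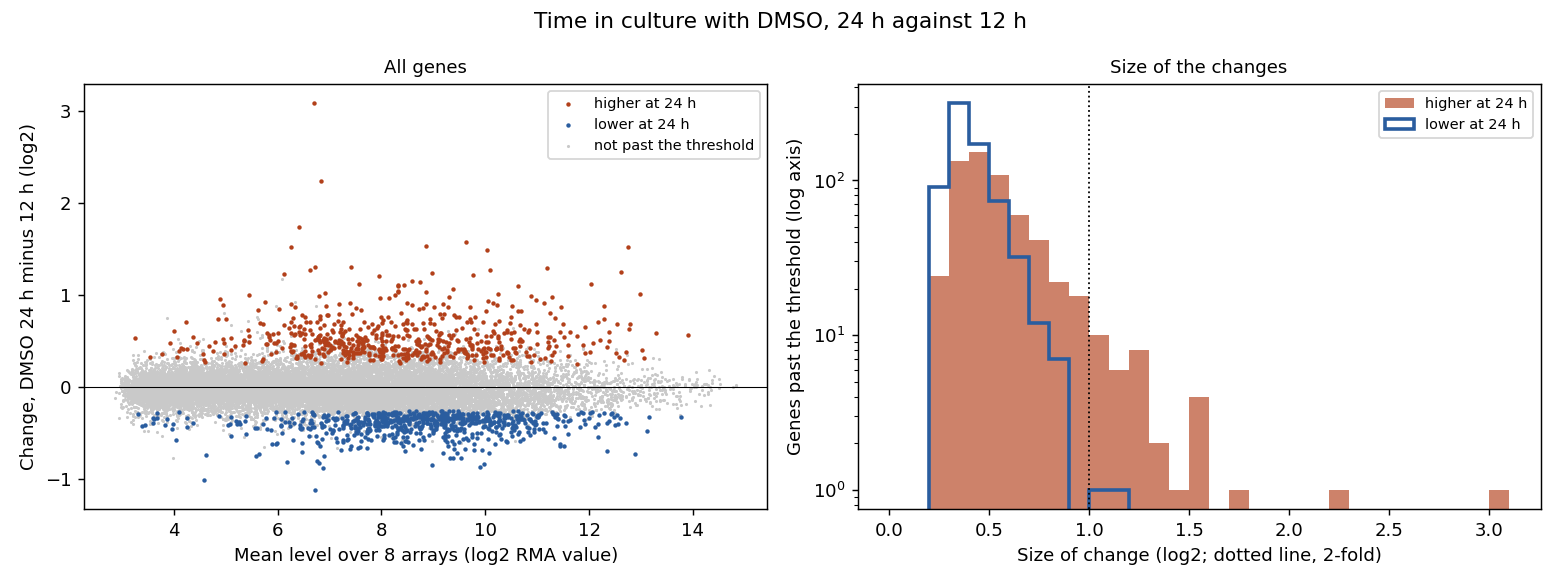
Left, log2 change in DMSO, 24 h minus 12 h (y axis), against mean level over 8 arrays (x axis) for every gene; right, number of called genes (log axis) by size of change. Of the genes at least 2-fold changed, right of the dotted line, 34 were higher and 2 lower at 24 h.

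How many genes passed changed when single arrays were left out, and so did the balance of directions. A fit with 1 array fewer also has fewer residual degrees of freedom, so a lower count does not measure that array alone. Leaving out replicate 2 of DMSO at 24 h left 95 genes higher and 40 lower, and leaving out its replicate 1 left 758 higher and 507 lower. Of the arrays at 12 h, leaving out replicate 1 gave 142 higher and 123 lower, and leaving out replicate 2 gave 35 and 4. When either BaP array of 12 h was dropped, which enters this comparison only through the spread, 421 were higher and 428 lower. After cyclic loess 721 were higher and 486 lower, 59.7% of calls against the 45.7% of calls that were higher on the deposited values. A set of 35 genes passed in all 4 fits that each left out a DMSO array, a count chosen after the data were seen. Of these, 32 were higher at 24 h, with log2 changes from 0.68 to 3.08, and 3 were lower, with changes from -0.88 to -0.69. They included 10 of the 15 genes with the highest changes and 2 of the 15 with the lowest.

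The same time step was measured on the BaP arrays, which share no array with the DMSO comparison. Between 24 h and 12 h in BaP 2916 genes differed, 15.3% of those tested. Of these, 1370 were higher at 24 h and 1546 lower (8.14% of genes). In both comparisons 394 genes rose and 451 fell, 64.9% of the DMSO calls and 29.0% of the BaP calls. No more than 2 genes were called in opposite directions. Both comparisons rest on the same estimate of each gene's spread, so their calls are not independent of each other. Of the 595 genes that rose in DMSO, 566 had a positive change in BaP, with a median of 0.44. Of the 707 that fell, 674 had a negative one, with a median of -0.34. The shares of all genes with such signs in BaP were not counted, and the overlap was not set against genes of like brightness. Across all 19002 genes the changes in DMSO and in BaP correlated at 0.57 by Pearson's and 0.43 by Spearman's method, and at 0.54 and 0.42 without DMSO 24 h replicate 2, which is a description, since genes are not independent replicates.

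The 15 genes that rose most in DMSO were called higher in BaP too, with changes there from 0.84 to 1.71, and 12 of the 15 that fell most were called lower in BaP. The 35 genes that passed without each DMSO array were all called in the same direction in BaP. Over all genes 15.3% were called in BaP in either direction, and genes of like brightness were not counted. For ENSG00000170345 the levels in BaP were 6.85 and 7.86 at 24 h, against 5.83 and 6.08 at 12 h. All BaP arrays at 24 h lay above those at 12 h, below the DMSO arrays of 24 h. The log2 change was 1.40 in BaP and 3.08 in DMSO, and the difference of -1.69 ± 0.38 (SE) did not pass (limma adjusted p = 0.103). ENSG00000114698 rose by 1.71 in BaP, ENSG00000189057 changed by -1.01 and ENSG00000118514 by -0.61, and for none of these 3 did the difference pass (limma adjusted p = 0.520, 0.901 and 0.419).

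The difference between the time changes was tested for every gene, which is the same contrast as the difference between the BaP effects at 24 h and 12 h. It passed for 122 genes, 0.642% of those tested. Of these, 23 had changed in DMSO, 14 higher and 9 lower, which is 1.77% of the DMSO calls. The other 99 did not pass in DMSO, and 118 of the 122 passed in BaP. Of the 23, 17 moved the same way in both, 2 moved in opposite ways, and 4 did not pass in BaP. None of the 30 genes with the highest and lowest DMSO changes was among the 122. A difference that missed the threshold does not show that the changes were equal: 2577 genes had an unadjusted p under 0.05 for it. The number of genes changed alike in both comparisons, 845, fell to 36 when replicate 2 of DMSO at 12 h was left out, to 207 for its replicate 1 and to 121 for replicate 2 of DMSO at 24 h. It lay between 436 and 540 when a BaP array was left out and was 712 for replicate 1 of DMSO at 24 h. The number with a difference lay between 31 and 55 in these fits, and at 88 in the last.

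**Figure D3:**
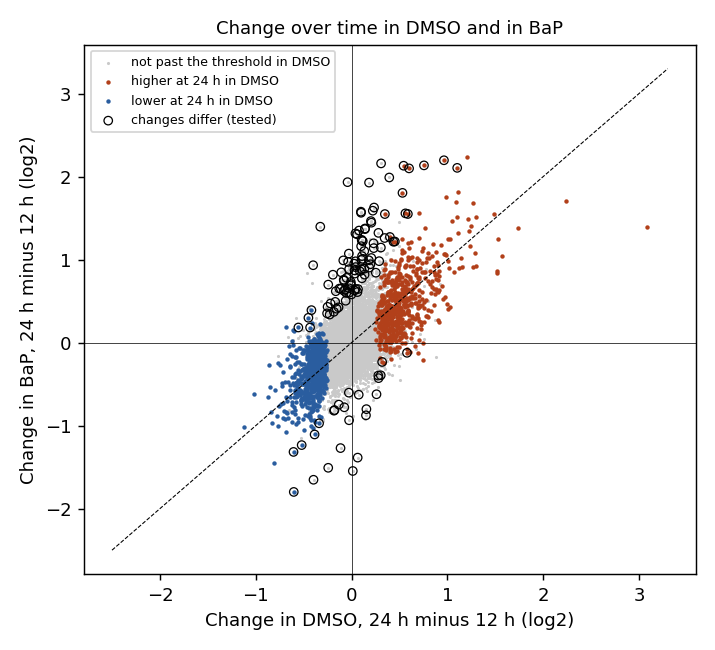
Log2 change from 12 h to 24 h in BaP (y axis) against the same change in DMSO (x axis), 1 point per gene; circles mark the 122 genes whose changes differed, and the dashed line marks equal changes. Most genes called in DMSO lie in the quadrants of equal sign, and most circles lie near 0 on the DMSO axis.

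Cell cycle phase sets gave the functional groups that could be matched by ID. The R package scran ships pairs of human marker genes for each phase, in which the first gene of a pair tends to exceed the second. A gene was put in the set of a phase when it appeared in no fewer than 10 pairs of that phase and was the first gene in 90% of them or more. The sets were chosen with results of these data known, and whether their members follow the phases in HepG2 was not tested. Of the G1 set, 214 of 246 genes were measured, of the S set 200 of 225, and of the G2M set, for G2 and M, 193 of 200. The sets share 7 genes between G1 and S, 15 between G1 and G2M and 15 between S and G2M.

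In the S set 36 of 200 genes fell and 5 rose in DMSO at 24 h, which is 18% lower, against 3.72% of all genes. The genes of the set that fell had a median log2 change of -0.39, the lowest being -0.72, and the highest gene of the set rose by 1.25. In the G1 set 34 of 214 fell and 9 rose, 15.9% lower, with a median of -0.42 among those that fell and extremes of -0.85 and 1.27. In the G2M set 13 of 193 fell and 4 rose, 6.74% lower. The median over all measured members, passing or not, was -0.10 in the S set, -0.10 in the G1 set and -0.03 in the G2M set, beside -0.02 for all genes. A negative change was found for 138 of 200, 146 of 214 and 113 of 193 members in that order, or 69.0%, 68.2% and 58.5%, against 55.6% of all genes.

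Members of the sets were brighter than other genes, with median levels of 8.27 in the S set, 9.20 in the G1 set and 8.29 in the G2M set. Within the brightest class, 27 of 124 S members fell, 29 of 164 G1 members and 9 of 114 G2M members. These are 21.8%, 17.7% and 7.89%, beside the 8.23% of all genes in that class. So the G2M share was near that of all genes in the brightest class, and the S and G1 shares were above it. Levels were not matched within the class, and members outside it were not set against their own level class. When DMSO 24 h replicate 2 was dropped, 3 S, 4 G1 and 1 G2M member of that class fell, or 2.42%, 2.44% and 0.877%, beside 0.426% of all genes in it. The mean over the S set, relative to its mean on the 4 DMSO arrays, was -0.06 and -0.05 at 24 h, against 0.05 and 0.06 at 12 h. For the G1 set the means were -0.05 and -0.03 at 24 h, against 0.03 and 0.05 at 12 h. For the G2M set they were -0.03 and 0.01 at 24 h, against 0.01 and 0.01 at 12 h. The groups did not overlap in the S and G1 sets; in the G2M set they were separated by less than the replicates at 24 h differed.

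The set counts also changed when single arrays were left out, with the same limit on residual degrees of freedom. When replicate 2 of DMSO at 24 h was left out, 3 S, 4 G1 and 1 G2M member fell, or 1.5%, 1.87% and 0.518%, beside 0.211% of all genes in that fit. When replicate 2 of DMSO at 12 h was left out, 0 members of any set passed as lower in limma, where 4 of all genes did; at an unadjusted p under 0.05, 52 S, 49 G1 and 25 G2M members were lower. Leaving out replicate 1 of that group gave 7 S, 9 G1 and 2 G2M members lower, or 3.5%, 4.21% and 1.04%, beside 0.647% of all genes. Leaving out replicate 1 of DMSO at 24 h gave 23 S members lower and 8 higher, and 23 G1 members lower and 16 higher, with 2.67% of all genes lower and 3.99% higher. The balance of the G2M set turned in that fit, to 10 members higher and 8 lower. A fit of the DMSO arrays alone gave 16 S, 19 G1 and 4 G2M members lower, or 8%, 8.88% and 2.07%, beside 1.48% of all genes. Leaving out any 1 BaP array gave 8 G2M members lower, or 4.15%, beside 2.25% to 2.82% of all genes. The set medians were -0.11, -0.08 and -0.05 for S, G1 and G2M without replicate 2 at 24 h, and -0.08, -0.08 and -0.02 without replicate 2 at 12 h. In BaP over the same time, 52 S members (26.0%), 48 G1 members (22.4%) and 26 G2M members (13.5%) fell, against 8.14% of all genes. Set members are brighter than other genes, and the BaP shares were not set against genes of like brightness. The excess over all genes in BaP is therefore not read as a result about the sets. The same limit holds for the other shares of this paragraph. Of these fits, only the one without replicate 2 at 24 h was also counted within the brightest class. The difference between the time changes passed for 1 S member, 1 G1 member and 2 G2M members.

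**Figure D4:**
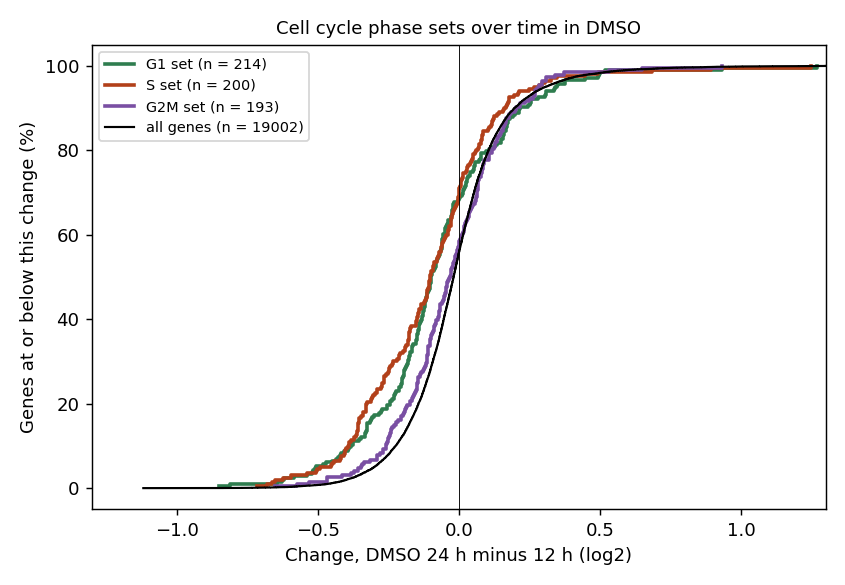
Share of genes (y axis, %) at or below a given log2 change in DMSO, 24 h minus 12 h (x axis), for the phase sets and all genes. The S and G1 curves lie left of all genes, with medians of -0.10 each, and the G2M curve lies close to all genes, with -0.03; the axis ends before the highest changes of all genes.

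Control probe sets named a few human transcripts. GAPDH, a glycolytic enzyme, averaged 14.34 and 14.34 over its 3 probe sets at 24 h, against 14.31 and 14.30 at 12 h. Beta-actin, a component of the cytoskeleton, averaged 13.86 and 13.87 at 24 h, against 13.82 and 13.81 at 12 h. The changes of the 6 probe sets lay between 0.02 and 0.05 and none passed, nor had any an unadjusted p under 0.05. ISGF3A, a factor of interferon signalling, averaged 7.58 and 7.78 at 24 h, against 7.64 and 7.60 at 12 h, with changes from -0.06 to 0.12 over 4 probe sets, 0 past the threshold and 0 at an unadjusted p under 0.05 (lowest limma adjusted p 0.543). The gap between the 3' and the 5' probe set of a transcript widens when RNA is broken. It was 0.32 and 0.36 for beta-actin at 24 h, against 0.34 and 0.34 at 12 h, and for GAPDH 0.01 and 0.05 at 24 h, against 0.02 and 0.01 at 12 h, so the groups overlapped in both.

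The 18S probe sets, which read the RNA of the small ribosomal subunit, separated a single array from the rest. The mean of the 3 probe sets of 18S ribosomal RNA was 12.8 and 11.3 at 24 h, against 13.0 and 12.7 at 12 h. The low value is DMSO 24 h replicate 2, while replicate 1 lay within the range at 12 h. None of the 3 passed (log2 changes from -0.87 to -0.76, lowest limma adjusted p 0.243), and without DMSO 24 h replicate 2 the 3' probe set changed by 0.02. The 28S probe sets averaged 9.51 and 9.39 at 24 h, against 9.61 and 9.48 at 12 h, and the groups overlapped in this mean. Single probe sets changed by -0.25 at the 5' end, -0.19 in the middle and 0.14 at the 3' end, and none passed. Only the middle one had an unadjusted p under 0.05 (limma adjusted p = 0.180). It read 10.52 and 10.37 at 24 h, against 10.66 and 10.62 at 12 h. The 28S means of the BaP arrays were lower, from 9.03 to 9.28. Labelling began from poly-A tails, and how these probe sets relate to the cells' ribosomal RNA was not tested.

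Poly-A controls are bacterial transcripts mixed into total RNA before labelling, as a reading of that step; whether every sample received the same amount was not tested. The 24 poly-A probe sets read the transcripts dap, lys, phe and thr, each by several probe sets. Counts of them are therefore not counts of independent readings, and the same holds for the hybridization probe sets below. The mean over the 24 poly-A probe sets was 9.45 and 9.08 at 24 h, against 9.92 and 9.91 at 12 h. Both arrays at 24 h were lower, replicate 2 more so. On the BaP arrays the mean was 9.56 and 9.20 at 24 h, against 9.61 and 9.31 at 12 h, and 0 of the 24 passed in limma, with 0 at an unadjusted p under 0.05. The DMSO arrays of 12 h thus had the highest means of the 8 arrays, and those of DMSO at 24 h lay among or below those of BaP. The median change was -0.75 for the 8 probe sets at the 5' end, -0.63 for the 8 in the middle and -0.55 for the 8 at the 3' end. The threshold was passed by 5, 5 and 1 of them in that order, all lower, and all 24 were lower at an unadjusted p under 0.05. The difference between the time changes in BaP and in DMSO passed for 0 of the 24 in limma. Without DMSO 24 h replicate 2 none passed in limma, and 17 of the 24 were lower at an unadjusted p under 0.05. Likewise none passed without replicate 1 or replicate 2 of DMSO at 12 h, where 22 and 23 were lower at an unadjusted p under 0.05, while 17 passed without replicate 1 of DMSO at 24 h. Hybridization controls, added after labelling, averaged 10.85 and 10.81 at 24 h, against 10.82 and 11.01 at 12 h, with 0 calls among 18 and 0 at an unadjusted p under 0.05. A scaling that sets the poly-A means of all arrays equal adds 1 amount to every gene of an array. The median change of all genes then becomes 0.63 and those of the phase sets 0.55 to 0.62, below that of all genes, and the 15767 calls, all higher, follow from that shift and are not read as changes of single genes. RMA makes the arrays' distributions alike, so directions on the deposited values are relative to the typical transcript of an array. The part of the amount added, of the labelling and of RNA content per cell in the poly-A difference was not tested.

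**Figure D5:**
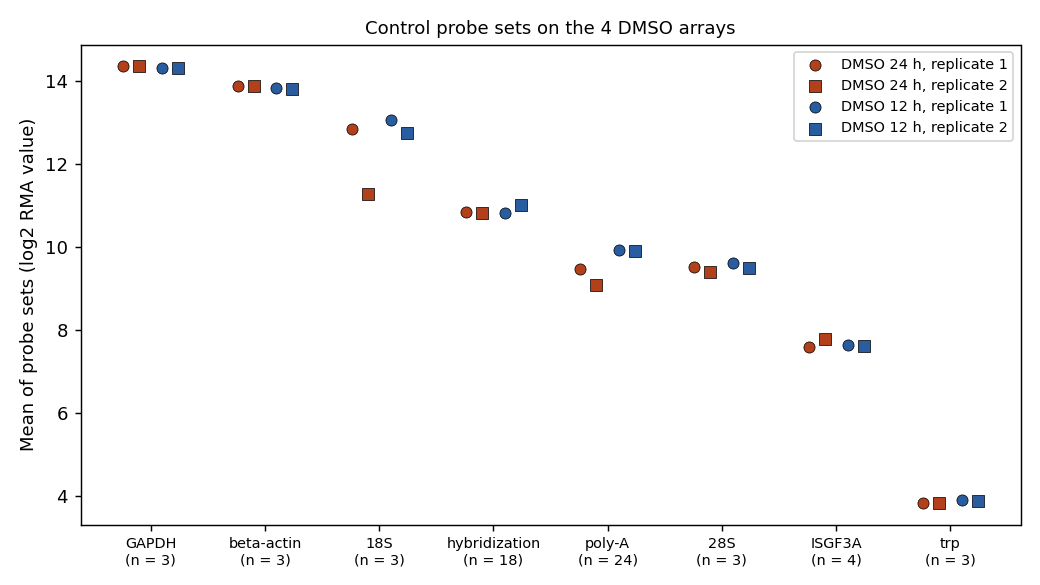
Mean log2 RMA value (y axis) of each class of control probe sets on the 4 DMSO arrays (circles, replicate 1; squares, replicate 2; n, probe sets per class). GAPDH, beta-actin and the trp control lie close together in both groups, the poly-A controls are lower on both arrays at 24 h, and the 18S mean of DMSO 24 h replicate 2, 11.3, is the one value apart.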

How the data were processed

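HepG2 RNA was measured on Affymetrix arrays from 250 ng total RNA, per the labels' protocols. The deposited values are on the log2 scale. Per the submitters' processing notes, the authors used RMA and R 2.12.2; RMA makes the distributions of the arrays alike and so removes any shift shared by all transcripts. How probes were assigned to genes, and the genome build, are not given in the sources used here. Titles number the 2 arrays of each group as biological replicates.

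Group means of all 8 arrays were fitted with limma 3.58.1 in R 4.3.3, leaving 4 residual degrees of freedom, with Benjamini-Hochberg adjustment over 19002 genes; p-values of control probe sets came from a model of all 19064 rows. The model was tested on simulated data. The comparison, its members and all lists were chosen with earlier results of these data known. Genes were to be named by symbol, as the 15 highest and 15 lowest called changes with non-overlapping groups, leading members of gene lists and the extremes of the difference. Without symbols the 2 highest and 2 lowest of that ranking are given by ID, and the symbol lists were not tested. Marker pairs came from scran 1.30.0. Alternatives were other scalings, filters, moderation, thresholds, a replicate block and leaving out each array. Arrays carry no count depth; their number limits the precision.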

Additional observations from a re-analysis of the deposited data

Results flagged for a closer look

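The time change from 12 h to 24 h differed between BaP and DMSO for 122 genes by limma's test of the difference itself, with 97 higher and 25 lower in BaP minus DMSO. Of these, 99 passed the threshold over time in BaP and not in DMSO, and 4 in DMSO and not in BaP. The number was 45 when replicate 2 of DMSO at 24 h was left out and 31 when replicate 2 of DMSO at 12 h was.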

How the results depend on the processing

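The number of genes changed in DMSO, 1302, was 631 with the DMSO arrays alone, 2265 among genes at or above the median level, 2015 with a trended prior, 188 at an adjusted p under 0.01, 256 with a minimum fold of 1.5 and 15767 after scaling to poly-A controls, which moves all genes of an array together, where no gene was lower in limma and 1 was at an unadjusted p under 0.05. The number with a different time change in BaP, 122, was 480 at or above the median level, 325 with a trended prior, 31 at an adjusted p under 0.01 and 22 after poly-A scaling. The number changed alike in both, 845, was 1410, 147 and 295 at or above the median level, under 0.01 and after poly-A scaling, and 150 with the minimum fold. The causes were not tested. Stricter thresholds can only lower a count. The fit at or above the median level tested fewer genes and also estimated its moderation from them alone. These were not told apart. With 1 array left out, so that a lone array is taken to vary like the other groups, these counts ranged from 39 to 1265, from 31 to 88 and from 36 to 712. The replicate block gave 1388, 151 and 895. It also gave 24 of 24 poly-A probe sets lower, in place of 11. Of the 6 correlations of replicate deviations between groups, 5 lay between 0.10 and 0.14, with 0.13 for the DMSO groups, and BaP and DMSO at 24 h had -0.05. The second deposited copy names the arrays of every group Ex2 and Ex3, which no label defines. With 2 numbers and 1 negative correlation, equal numbers were not taken as pairs, and whether they mark shared experiments was not settled. ENSG00000170345 and ENSG00000114698 kept their calls in all 20 alternatives. These include the second deposited copy, whose values are identical, and the poly-A scaling, which raises every DMSO change. Both genes were picked as the highest of these same data, so the tally is a description. ENSG00000189057 also lost its call at an adjusted p under 0.01 and, like ENSG00000118514, after poly-A scaling (-0.47 and -0.37). The 3' probe set of 18S ribosomal RNA, at -0.87, ranged from -1.75 without DMSO 24 h replicate 1 (limma adjusted p = 0.00199) to 0.0167 without DMSO 24 h replicate 2. Phase sets at 80% of pairs had 49 of 313 S, 45 of 303 G1 and 16 of 275 G2M members lower. These are 15.7%, 14.9% and 5.82%, below the shares of the stricter sets, beside 3.72% of all genes and 8.23% of the brightest class. Members of these wider sets were not counted within that class. Their medians were -0.07, -0.08 and -0.02. Counts of the symbol lists were not run.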
